A study of Mus musculus with 8 samples.

Results

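The cytosolic ribosomal protein genes are the genes whose messages encode the protein parts of the cytoplasmic ribosome. They were taken by symbol: Rpl or Rps with a number and at most 1 of the endings a, l, x, l1 or al, together with Rplp0, Rplp1, Rplp2 and Rpsa, and without symbols marked as pseudogenes by -ps. This gave 86 of the 55188 genes listed, 53 named for the large subunit and 33 for the small subunit. Of these, 75 were main copies (45 large, 30 small) and 11 were paralogs or retrocopies, that is, second genes that resemble a main copy. Expression was measured by RNA-seq of the hippocampus of C57BL/6 mice, sampled before fear conditioning, in animals labelled wild type (WT) and animals labelled as knockout of Pyk2 (KO), the tyrosine kinase encoded by Ptk2b. There were 8 libraries: WT1, WT2, KO1 and KO2, each with 2 technical replicates. Each number is treated here as 1 animal, which the labels do not state, so that n is 2 animals per group and p-values measure the spread between these numbered units. The labels describe both groups as transgenic mice and give no age, sex, pooling, deleted exons or control transgene. Values are FPKM, fragment counts scaled by transcript length and library size, which can be set side by side between genes. Rpl13 was not analysed here.

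A cytoplasmic ribosome is built from a small subunit, which holds the message and matches codons with tRNAs, and a large subunit, which joins amino acids and passes the growing chain through an exit tunnel. Its proteins are made in the cytoplasm, carried into the nucleus and assembled with ribosomal RNA in the nucleolus, and most are needed in equal copy number per ribosome. Their messages begin with a run of pyrimidines, the terminal oligopyrimidine (TOP) element, through which mTORC1 signalling controls their translation, and in neurons some of these messages are found in dendrites and axons.

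The TOP element stands at the start of the transcript. Windows of 15 bases on each side of the start given by RefSeq (GRCm38.p6) are shown for 6 main copies and 2 paralogs. The capitals mark the longest run that begins with C and goes on with at least 5 further C or T on the gene's strand. The examples were chosen after the windows had been read. All 6 main copies shown hold a run that spans the start. Over all main copy windows only 33 of 65 hold a run anywhere in the window, and not all of these runs span the start. The run of Rps27l ends before the start, so it lies outside the message given by RefSeq. A second Rps27l window, at chr9:66946398-66946427, and the Rpl7l1 window hold no run.
Rpl35, chr2:39005117-39005146, minus strand: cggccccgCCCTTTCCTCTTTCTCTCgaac
Rpl27a, chr7:109519180-109519209, plus strand: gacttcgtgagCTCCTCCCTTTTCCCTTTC
Rpl7a, chr2:26910792-26910821, plus strand: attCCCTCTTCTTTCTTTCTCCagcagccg
Rps10, chr17:27635230-27635259, minus strand: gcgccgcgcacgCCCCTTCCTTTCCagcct
Rps6, chr4:86857353-86857382, minus strand: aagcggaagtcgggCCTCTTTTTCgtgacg
Rps27, chr3:90213634-90213663, minus strand: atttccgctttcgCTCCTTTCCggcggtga
Rps27l, chr9:66946071-66946100, plus strand: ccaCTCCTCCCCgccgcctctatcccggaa
Rpl7l1, chr17:46782642-46782671, minus strand: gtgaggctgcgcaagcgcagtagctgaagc

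RefSeq windows were matched to 63 of the 86 genes. A pyrimidine run of this kind stood in 33 of the 65 windows of main copies (50.8%), in 4 of the 10 windows of paralogs (40%) and in 22.5% of all 32851 windows of the genome table. In the wider window from 250 bases before the start to 50 after it, searched on both strands, the letters CCGGAAG, which occur in ETS-family sites, were found in 36.9% of main copy windows, 20% of paralog windows and 8.86% of all windows. AAGATGG, which occurs in YY1 sites, was found in 16.9%, 10% and 6.34%. GGGCGG, the GC box, was found in 60% of main copy windows and 50% of paralog windows against 35.7% of all windows. TATAAA was found in 9.23% of main copy windows, 20% of paralog windows and 13.6% of all windows. The set of motifs was chosen with these data known. A match describes the letters only, and a pyrimidine run may lie wholly before or after the start. Windows of 1 gene with several starts are counted separately.

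Ptk2b, the targeted gene, was listed at 232, 232, 203 and 202 FPKM in the 4 WT libraries (technical replicates of WT1, then of WT2) and at 277, 279, 264 and 274 FPKM in the 4 KO libraries. All 4 libraries labelled KO lay above all 4 WT libraries, so the level of the whole gene did not follow the label, and KO is used below only as a label. The part of the gene that was altered is not stated in the labels. The sum of FPKM over all genes was 489121 to 506216 per library; read counts were not analysed here, so depth is unknown. Summed choroid plexus markers, 10 genes, stood at 4221 to 7518 FPKM in the WT libraries and at 287 to 1251 FPKM in the KO libraries, with 10 of 10 lower and none at 0. The 5 blood markers summed to 284 to 318 FPKM in WT and 149 to 158 FPKM in KO, with 5 of 5 lower. Neuronal markers (5 genes) summed to 1428 to 1430.2 FPKM in WT and 1554 to 1629.6 FPKM in KO, with 2 of 5 lower. Striatal markers (4 genes) summed to 52.7 to 56.3 FPKM in WT and 30.8 to 32.2 FPKM in KO, with 3 of 4 lower. Microglial markers (3 genes) summed to 34.2 to 38.9 and 40.7 to 42.1 FPKM with 0 of 3 lower, and meningeal markers (4 genes) to 27.6 to 43.6 and 14.3 to 34.6 FPKM with 4 of 4 lower. Dentate granule cell markers (2 genes) summed to 46.5 to 56.5 FPKM and CA1 markers (2 genes) to 68.3 to 97.0 FPKM over all libraries. For 78 to 84 of 85 ribosomal protein genes with a level above 0, technical replicates differed by less than a bound on their combined error. That error was taken from the deposited confidence limits, so a value can lie outside the other replicate's limits, as for Rps27l in KO1. All 86 genes had the status OK in every library.

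**Figure D1:**
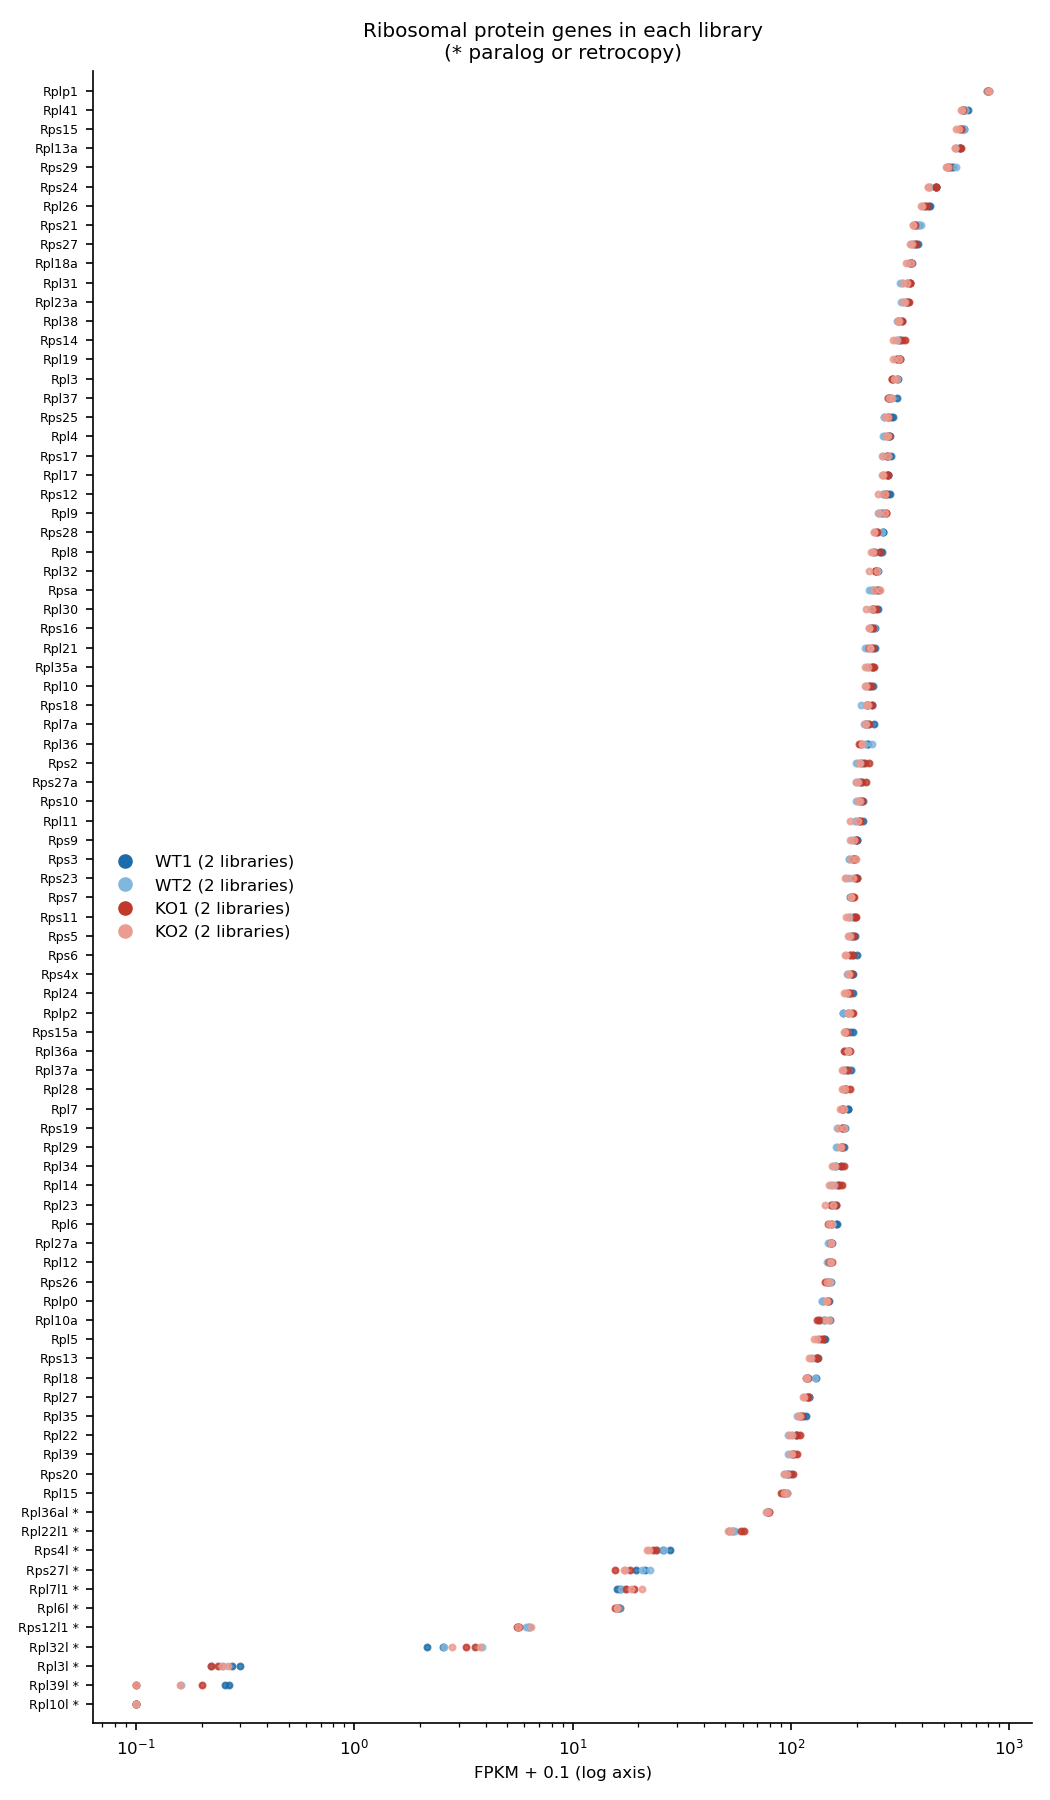
FPKM plus 0.1 (log axis) of 85 of the 86 ribosomal protein genes in each of the 8 libraries, ordered by mean level; colours give the animal and an asterisk marks a paralog or retrocopy. Main copies run from Rpl15 to Rplp1, all above the highest paralog, Rpl36al, and Rpl10l sits at 0 in all 8 libraries.

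The main copies were expressed at similar levels. Their means over the 4 animals ran from 93.0 FPKM for Rpl15 to 798 FPKM for Rplp1, a span of 8.58-fold, with 66 of 75 between 100 and 400 FPKM and a median of 206 FPKM. The median over all 16667 genes that passed the minimum (0.5 FPKM in 2 animals) was 7.13 FPKM. Large and small subunit main copies had medians of 202 and 206 FPKM. The 5 genes above 500 FPKM were Rplp1, Rpl41, Rps15, Rpl13a and Rps29; these bounds were chosen after the levels were seen. Levels kept their order between groups: Spearman's rho between the WT and KO means of the 75 main copies was 0.997, a description over genes that share libraries and annotation. FPKM and coding length had a rho of -0.17. The 9 main copies with coding sequences under 300 bases had a median of 313 FPKM, against 197 FPKM for the 66 longer ones.

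Rplp1, an acidic protein of the P stalk that recruits elongation factors, stood at 787, 806, 798 and 786 FPKM in the WT libraries and 799, 798, 797 and 809 FPKM in the KO libraries. Its libraries overlapped between groups, and the coefficient of variation over animals was 0.566%. Rpl41, which encodes the shortest protein of the ribosome, stood at 617, 643, 622 and 624 FPKM (WT) and 604, 613, 605 and 601 FPKM (KO). All 4 KO libraries of Rpl41 lay below all 4 WT libraries, by a log2 fold change (KO minus WT) of -0.05 (SE 0.04), which did not pass. Rps15, a protein of the small subunit head that reaches towards the decoding site, stood at 615, 619.7, 619 and 594 FPKM (WT) and 599, 594, 571 and 587 FPKM (KO), with overlapping libraries. Rpl13a, which also takes part in translational silencing outside the ribosome, stood at 591, 592, 571 and 576 FPKM (WT) and 597, 599, 564 and 565 FPKM (KO). In Rpl13a the animals overlapped, with the libraries of WT1 and KO1 above those of WT2 and KO2. Rps29, a zinc-binding protein of the small subunit head, stood at 551, 542, 571 and 530.4 FPKM (WT) and 529, 521, 523 and 511 FPKM (KO). The KO libraries of Rps29 were all lower than the WT libraries, without passing the test. Of the next levels, Rps24, a small subunit protein mutated in Diamond-Blackfan anaemia, stood at 444 FPKM, Rpl26 at 411 FPKM and Rps21 at 374 FPKM over the 4 animals.

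The P stalk is made of Rplp0, Rplp1 and Rplp2, with Rpl12 at its base. Mean levels over the 4 animals were 144 FPKM for Rplp0, 798 for Rplp1, 182 for Rplp2 and 151 for Rpl12. Rplp1 was the highest of the 4 in every library. Rplp2 stood at 182, 173, 181 and 173 FPKM (WT) and 189.7, 191, 186 and 182 FPKM (KO), which with all 4 animals is the largest positive difference among the main copies, at 0.08 on the log2 scale (SE 0.04, limma adjusted p = 0.393). The 4 KO libraries of Rplp2 reached from just above the highest WT library upwards, and the difference did not pass.

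Rpl5 and Rpl11, which with 5S RNA form the particle that can bind the p53 regulator Mdm2, stood at 136 and 202 FPKM. Their values in WT and KO overlapped between animals. Rps6, the small subunit protein phosphorylated by S6 kinases downstream of mTORC1 and often used as a readout of neuronal activity at the protein level, stood at 192, 201, 186 and 187 FPKM (WT) and 186, 191, 177 and 178 FPKM (KO). WT1 was the highest animal for Rps6 and the libraries of the groups overlapped (log2 fold change -0.06, SE 0.05, limma adjusted p = 0.577). The ubiquitin fusion gene Rps27a stood at 207 FPKM. Rpsa, the small subunit protein also known as the laminin receptor precursor, stood at 238, 251, 232 and 227 FPKM (WT) and 244, 253, 239 and 254 FPKM (KO). Both KO animals were above both WT animals in Rpsa, while the libraries overlapped.

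Proteins that line the exit tunnel or its mouth are encoded by Rpl4, Rpl17, Rpl22, Rpl39 and Rpl23a. Over the 4 animals their levels were 275 FPKM for Rpl4, 271 for Rpl17, 103 for Rpl22, 101 for Rpl39 and 334 for Rpl23a. Rpl22 and Rpl39 belonged to the 5 lowest main copies, together with Rps20, Rpl15 and Rpl35.

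The genes lie scattered over the genome. The 75 main copies were annotated on 19 chromosomes, with the largest number, 14, on chromosome 7 and 4 on the X chromosome. All 86 had the same coordinates in the GENCODE M21 annotation of mm10 as in the deposited tables. Of 82 protein-coding members, 28 (34.1%) held at least 1 small nucleolar RNA gene within their bounds, against 279 of all 21951 protein-coding genes (1.27%). Rpl4 held 5 of them and Rpl13a held 4. Of the 86 genes, 30 overlapped another annotated gene, and the strand setting of the counting is not given in the sources used here, so reads of overlapping partners cannot be told apart.

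There were 8 named paralogs with a counterpart among the main copies by symbol, and 3 further retrocopies (Rps12l1, Rpl32l and Rpl6l) were paired after member levels had been seen. Rps4l and these 3 are annotated as pseudogenes with 1 exon. Rpl22l1 reached 53.4% of the level of Rpl22 and Rpl36al reached 43.2% of Rpl36a. Rps4l stood at 13.1% of Rps4x, Rpl6l at 10.3% of Rpl6, Rpl7l1 at 10.1% of Rpl7 and Rps27l at 5.21% of Rps27. Rps12l1 stood at 2.18% of Rps12 and Rpl32l at 1.22% of Rpl32. Rpl39l and Rpl3l were at 0.0672% and 0.0512% of their main copies, and Rpl10l was listed at 0 in all 8 libraries. Rpl3l is known from heart and skeletal muscle, and Rpl10l and Rpl39l from the testis.

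**Figure D2:**
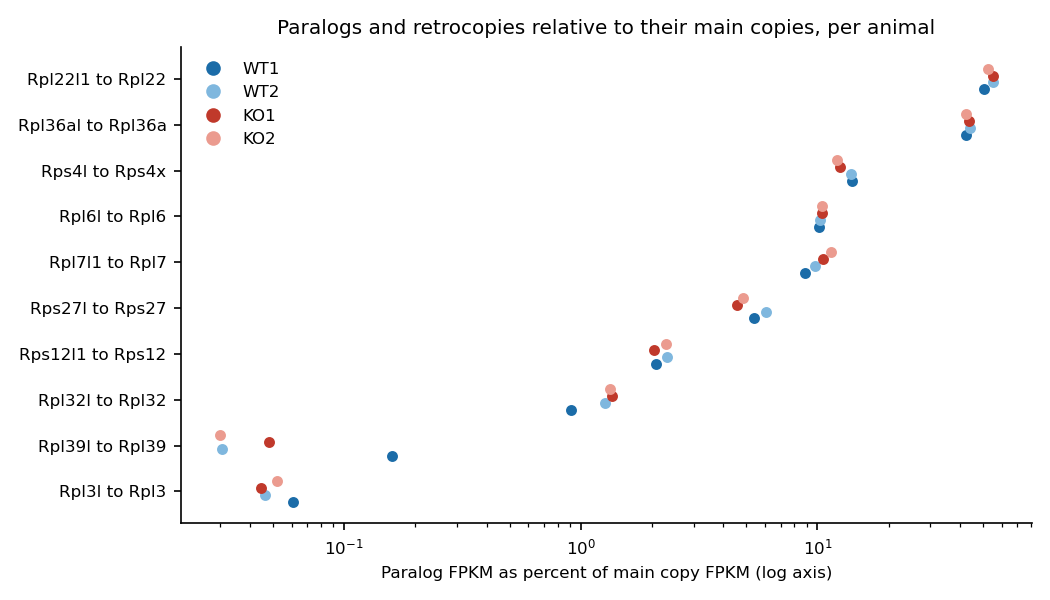
Level of each paralog or retrocopy as a percent of its main copy (log axis), 1 point per animal (mean of 2 technical replicates). The 10 pairs with a value span from 0.0512% (Rpl3l to Rpl3) to 53.4% (Rpl22l1 to Rpl22) as means over the animals, and Rpl10l, listed at 0, is not drawn.

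How far reads can tell the copies apart depends on how alike the sequences are. For 2 pairs the coding sequences are shown, from GENCODE M21 transcripts (mm10), with capitals at the positions where the members of a pair differ: Rps27 and Rps27l, the pair with the smallest p among the paralogs, and Rpl39 and Rpl39l, a pair of short genes in which the paralog was close to 0. Rps27 lies on chr3:90212522-90213651 (minus strand, 4 exons), Rps27l on chr9:66946086-66949516 (plus, 4 exons), Rpl39 on chrX:37082520-37085402 (minus, 3 exons) and Rpl39l on chr16:10170226-10174911 (plus, 3 exons).
Rps27: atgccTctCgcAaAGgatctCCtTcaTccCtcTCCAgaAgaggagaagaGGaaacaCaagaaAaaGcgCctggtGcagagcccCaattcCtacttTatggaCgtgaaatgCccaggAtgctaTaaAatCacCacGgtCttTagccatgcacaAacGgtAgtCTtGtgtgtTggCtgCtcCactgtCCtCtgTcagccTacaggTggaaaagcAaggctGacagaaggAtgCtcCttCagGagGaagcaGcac
Rps27l: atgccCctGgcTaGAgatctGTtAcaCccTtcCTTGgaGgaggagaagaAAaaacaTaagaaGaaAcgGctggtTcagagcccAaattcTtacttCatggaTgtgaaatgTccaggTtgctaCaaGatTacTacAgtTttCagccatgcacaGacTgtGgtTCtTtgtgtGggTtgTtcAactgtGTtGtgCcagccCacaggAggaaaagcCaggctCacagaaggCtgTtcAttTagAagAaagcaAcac
Rpl39: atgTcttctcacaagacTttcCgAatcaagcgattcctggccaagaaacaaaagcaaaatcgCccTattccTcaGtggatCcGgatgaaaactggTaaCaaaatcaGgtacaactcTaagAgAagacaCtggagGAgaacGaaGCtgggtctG
Rpl39l: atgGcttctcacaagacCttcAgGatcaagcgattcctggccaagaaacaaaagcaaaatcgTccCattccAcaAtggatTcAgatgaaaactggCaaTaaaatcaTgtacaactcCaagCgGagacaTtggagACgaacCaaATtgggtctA

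Rps27 and Rps27l differed at 60 of 252 coding bases, an identity of 76.2%, and the longest run of bases shared by their transcripts was 11. Rpl39 and Rpl39l differed at 23 of 153 bases (85.0% identity). The other coding pairs were 87.7% identical for Rpl36al, 84.7% for Rpl10l, 73.2% for Rpl3l, 67.5% for Rpl22l1 and 54.4% for Rpl7l1. Rps4l, read against the coding sequence of Rps4x, was 79.9% identical. The retrocopies were closer: Rpl32l was 96.0% and Rpl6l 98.7% identical, and Rps12l1 matched Rps12 at all 396 coding bases. How the authors' counting divided reads between near-identical copies is not given in the sources used here. The values of Rps12l1, Rpl6l and Rpl32l, and those of Rps12, Rpl6 and Rpl32, are therefore uncertain. The 318 pseudogenes marked -ps summed to 1019 to 1096 FPKM per animal. Their sequences were not compared, so other main copies may carry the same uncertainty.

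Between the groups, 0 of the 83 tested ribosomal protein genes were called at an adjusted p under 0.05 (limma on log2(FPKM + 1) of animal means, Benjamini-Hochberg over all genes tested), against 9 of all 16667 tested genes (0.054%), all 9 lower in KO. Without adjustment, 4 of 83 genes had a p under 0.05, against 15.5% of all tested genes: Rpl7l1 with a higher mean in KO (4.11% of all tested genes), and Rps27l, Rps4l and Rpl36 with a lower one (11.4%). The 3 genes not tested, Rpl10l, Rpl39l and Rpl3l, were below the minimum. Both KO animals lay beyond both WT animals for 24 of 83 genes, 8 above and 16 below, against 49.1% of all tested genes, 18.4% above and 30.7% below. All 4 KO libraries lay beyond all 4 WT libraries for 10 of 83, 2 above and 8 below, against 20.1% of all tested genes, 7.11% above and 13% below. The median log2 fold change was -0.012 over the 83 genes and -0.022 over all tested genes.

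The 95% interval of the log2 fold change lay within 0.2 on either side of 0 for 75 of 75 main copies, against 24% of all tested genes, and for 2 of 8 tested paralogs. A difference of at least 0.1 on the log2 scale, in either direction, was seen in 1 of 75 main copies and 4 of 8 paralogs, against 40.4% of all tested genes. Both bounds were chosen after the values were seen. Among the 658 tested genes with a mean of at least 100 FPKM, which are nearer to the main copies in level, 60.9% had such an interval and 29.5% such a difference. These 658 genes include all main copies except Rpl15 and Rps20, so the comparison is not between separate sets. The median coefficient of variation over the 4 animals was 2.90% for main copies, 3.87% for these 658 genes and 7.04% for all tested genes. A log2 fold change below 0 was found in 50 of 83 (60.2%) against 58% of all tested genes. This share was 21.7% after median-of-ratios scaling, 78.3% after quantile normalization and 50.6% after rescaling each library to 1 equal total, while the share over all tested genes was 46.6%, 41.1% and 54.4%. With 1 animal left out it ran from 32.5% (without WT1) to 81.9% (without WT2), against 54.2% to 60% of all tested genes, so the direction of the group as a whole moved both with the scaling and with single animals.

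**Figure D3:**
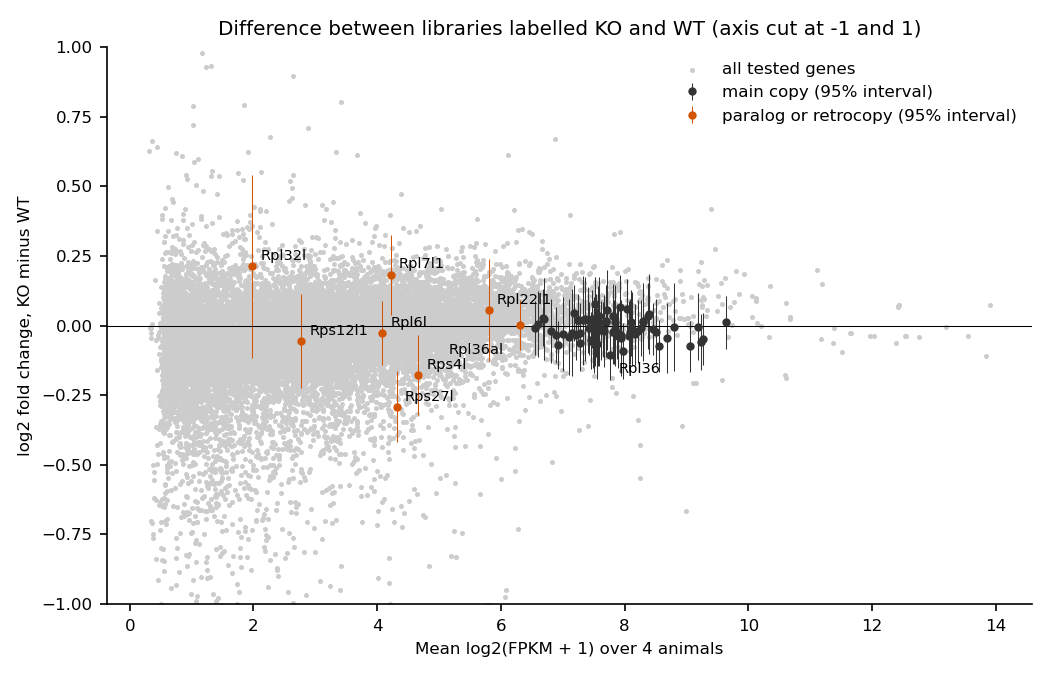
Log2 fold change (KO minus WT, on log2(FPKM + 1)) against mean level for all tested genes (grey), main copies (black) and paralogs or retrocopies (orange) with 95% intervals; genes beyond -1 or 1 are outside the axis. Main copies lie between -0.10 (Rpl36) and 0.08 (Rplp2), and Rps27l is the lowest member at -0.29.

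Among main copies, Rpl36, a large subunit protein, had the largest negative difference with all 4 animals, and Rps28 had a larger one without WT2 (-0.12) and without KO1 (-0.11). The values of Rpl36 were 226, 222, 235 and 218 FPKM in the WT libraries and 205, 209, 211 and 212 FPKM in the KO libraries. All KO libraries were lower than all WT libraries, with means of 225 ± 1.34 and 209 ± 3.56 FPKM (SD, n = 2 animals). The log2 fold change was -0.10 (SE 0.04, 95% interval -0.19 to -0.01), with an unadjusted p of 0.0311 and an adjusted p of 0.275 by limma. Next came Rps28, a small subunit protein near the mRNA exit, at 264, 264, 259.9 and 249 FPKM (WT) and 245, 248, 239.6 and 241 FPKM (KO). Rps29 and Rps21, both of the small subunit, followed with log2 fold changes of -0.08 and -0.07. Rps21 stood at 386, 375, 395 and 379 FPKM (WT) and 368, 367, 363 and 361 FPKM (KO). In Rps28, Rps29 and Rps21 the KO libraries were all below the WT libraries, and none passed (adjusted p 0.357, 0.396 and 0.400, limma).

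In the other direction, Rplp2 was followed by Rpsa at 0.07, by Rpl9, a large subunit protein, at 0.06, and by Rps2, a protein at the mRNA entry channel, at 0.06 on the log2 scale. Rpl9 stood at 257, 262, 251 and 253 FPKM (WT) and 273, 273, 254 and 268 FPKM (KO). Rps2 stood at 210.0, 214, 201 and 199 FPKM (WT) and 218, 227, 204 and 208 FPKM (KO). Both genes overlapped between groups in their libraries, and Rps2 also in its animals. Without KO1 the value of Rps2 was -0.0013. The order of these genes also rested on single animals: with 1 animal left out, Rpsa ran from 0.019 (without WT2) to 0.11 (without WT1, where Rplp2 was at 0.08), Rpl9 from 0.03 (without KO1) to 0.09 and Rplp2 from 0.05 to 0.10.

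Coding length was compared with the difference between groups. The 9 main copies with coding sequences under 300 bases, among them Rpl41, Rps29, Rps28 and Rps21, had their median log2 fold change at -0.049. Of these, 7 of 9 were lower, against 46 of all 75 main copies (61.3%) and 58% of all tested genes. The 66 longer ones had a median of -0.009. The bound was chosen after the values were seen, and over all 75 main copies the rho between coding length and log2 fold change was 0.16.

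The largest differences of the whole set were in paralogs. Rps27l, a second copy of Rps27 known as a target of p53, stood at 21.4, 19.3, 20.7 and 22.5 FPKM in the WT libraries and 18.1, 15.5, 17.0 and 17.2 FPKM in the KO libraries. All 4 KO libraries lay below all 4 WT libraries, and the means were 21 ± 0.873 and 17.0 ± 0.201 FPKM (SD, n = 2 animals). The log2 fold change was -0.29 (SE 0.05, 95% interval -0.42 to -0.16), with an unadjusted p of 0.00199 and an adjusted p of 0.116 by limma, so that it did not pass. Its main copy Rps27, with 372, 383, 353 and 360.4 FPKM (WT) and 365, 372, 357 and 352 FPKM (KO), overlapped between groups. In the same libraries the summed choroid plexus markers were 287 to 1251 FPKM in KO against 4221 to 7518 FPKM in WT, and the summed blood markers were 149 to 158 against 284 to 318 FPKM. Striatal markers were likewise lower as a sum, at 30.8 to 32.2 against 52.7 to 56.3 FPKM, and microglial markers higher, at 40.7 to 42.1 against 34.2 to 38.9 FPKM. The part of these cell types in the level of Rps27l, or of any other member, was not tested, and in whole tissue fewer cells of a type and less RNA per cell cannot be told apart.

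Rps4l, an annotated pseudogene of Rps4x, stood at 25.8, 27.9, 26.0 and 24.1 FPKM (WT) and 23.9, 23.1, 22.4 and 21.9 FPKM (KO). Its KO libraries were all lower, with a log2 fold change of -0.18 (SE 0.06, limma adjusted p = 0.257). It lies within the bounds of Tmtc1 on the opposite strand. Rpl7l1, a paralog of Rpl7 that acts in ribosome assembly, went the other way, at 16.4, 15.8, 16.5 and 17.2 FPKM (WT) and 17.4, 18.9, 18.4 and 20.7 FPKM (KO). All 4 of its KO libraries lay above all 4 WT libraries, with a log2 fold change of 0.18 (SE 0.06, limma adjusted p = 0.247). Rpl7l1 overlaps Gm26904 on the opposite strand. Rpl32l, at 2.46, 2.05, 3.76 and 2.47 FPKM (WT) and 3.16, 3.45, 3.64 and 2.71 FPKM (KO), had a value of 0.21, the highest with all 4 animals, and also the widest spread between technical replicates, followed by Rps27l, Rpl7l1 and Rps12l1 among the tested members. Its libraries overlapped between groups, and its value was 0.044 without WT1, below that of Rpl7l1 (0.15), and 0.38 without WT2. Rpl32l overlaps the gene Map7 on the same strand.

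The remaining expressed paralogs overlapped between groups in their libraries. Rpl22l1, whose level is known to rise when Rpl22 is lost, stood at 52.0, 54.4, 55.2 and 53.6 FPKM (WT) and 60.8, 58.9, 52.9 and 51.6 FPKM (KO). KO1 was above the other animals in Rpl22l1 and KO2 was within or below the WT range. Rpl36al stood at 77.1, 78.6, 77.3 and 79.1 FPKM (WT) and 78.0, 79.4, 76.6 and 78.6 FPKM (KO), with a coefficient of variation over animals of 0.626%. Rpl6l and Rps12l1 stood at 15.9 and 5.85 FPKM over the 4 animals. Rpl3l was at 0.120 to 0.199 FPKM in WT and 0.121 to 0.165 FPKM in KO, and Rpl39l was listed at 0 in 3 of 8 libraries.

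Each paralog was also taken as a ratio to its main copy within each animal. Such a ratio depends little on the scaling between libraries, except where the level is near the pseudocount, as for Rpl39l and Rpl3l. The groups of animals did not overlap in 5 of 10 pairs, 3 above and 2 below in KO. Without the 3 retrocopies paired later, they did not overlap in 3 of the 7 pairs that are left. By the level of single genes, both KO animals lay beyond both WT animals in 49.1% of all tested genes. No such share was computed for ratios of other gene pairs. These shares are near that of single genes and are not read as a result about the paralogs. With 2 animals against 2 the smallest two-sided p of the exact permutation test is 0.333, so that no ratio could pass. Rps27l was 5.40% and 6.06% of Rps27 in WT1 and WT2, and 4.57% and 4.83% in KO1 and KO2. The difference in log2 ratio was -0.28 (exact permutation p = 0.333, adjusted p = 0.667 over 10 pairs). Rps4l was 14.1% and 13.9% of Rps4x in WT and 12.4% and 12.1% in KO (log2 difference -0.19). Rpl7l1 was 8.86% and 9.73% of Rpl7 in WT and 10.6% and 11.5% in KO (log2 difference 0.25). Rpl32l was 0.911% and 1.26% of Rpl32 in WT and 1.36% and 1.33% in KO (0.32, with 0.088 without WT1 and 0.54 without WT2), and Rpl6l was 10.1% and 10.3% of Rpl6 in WT and 10.5% in both KO animals (0.04). Each of these 5 had the same p. Rpl22l1 and Rpl36al, the most highly expressed paralogs, had log2 differences of 0.03 and -0.01 with overlapping animals.

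The summed level of the 86 genes was 18846 FPKM in WT1, 18172 in WT2, 18620 in KO1 and 18048 in KO2, which is 3.58% to 3.80% of all FPKM in a library. The KO mean differed from the WT mean by -0.944% (exact two-sided permutation p = 0.667, smallest possible 0.333), a difference below the spread between animals of a group, whose SDs were 477 FPKM in WT and 404 FPKM in KO. WT1 and KO1 together lay 3.44% above WT2 and KO2. In 49 of 75 main copies both animals numbered 1 lay above both numbered 2, and in 0 the reverse held. Over all tested genes the shares were 12.3% and 16.6%. Over the 658 genes of at least 100 FPKM, which include most main copies, they were 24.6% and 9.57%. This comparison was made after the values were seen. It held in direction under median-of-ratios scaling (54 of 75), quantile normalization (31 of 75) and rescaling to 1 equal total (43 of 75, with 1 the other way). Pseudogenes marked -ps, which resemble the same proteins, summed -4.37% in animals numbered 1 against those numbered 2, and mitochondrially encoded genes -0.57%. The labels do not say what the numbers share. Choroid plexus markers summed to 4240 (WT1), 7499 (WT2), 289 (KO1) and 1237 FPKM (KO2). Meningeal and blood sums were likewise lower in number 1 of each group. Striatal sums were lower in WT1 (53.6 FPKM) than in WT2 (55.8 FPKM) and nearly equal in KO1 (31.1 FPKM) and KO2 (31.5 FPKM). Oligodendrocyte markers (3 genes) summed to 2196, 2055, 2431 and 2138 FPKM. CA1 and microglial sums were likewise higher in number 1. Neuronal sums were nearly equal in WT1 (1429.2 FPKM) and WT2 (1428.85 FPKM) and higher in KO1 (1624.8 FPKM) than in KO2 (1558.8 FPKM). Astrocyte sums were higher in WT1 (191.5 FPKM) than in WT2 (164.8 FPKM) and nearly equal in KO1 (179.1 FPKM) and KO2 (177.7 FPKM). Dentate granule cell sums went opposite ways in WT and KO. Endothelial sums were lower in WT1 (14.8 FPKM) than in WT2 (16.0 FPKM) and nearly equal in KO1 (15.5 FPKM) and KO2 (15.4 FPKM). Any link to the ribosomal protein genes was not tested.

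**Figure D4:**
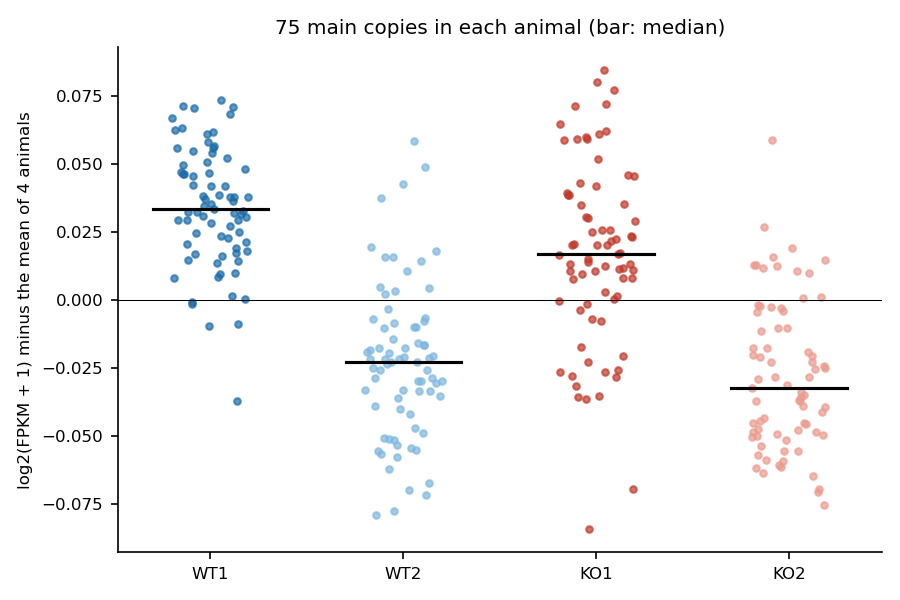
Level of each of the 75 main copies in each animal as log2(FPKM + 1) minus that gene's mean over the 4 animals; bars are medians. WT1 and KO1 sit mostly above 0 and WT2 and KO2 mostly below, in both groups.

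Genes that act around the ribosome were grouped into lists by role. In each of the 7 lists 0 genes were called in either direction. Ribosomal proteins outside the naming rule (5 of 5 tested) had their median log2 fold change at -0.010, and Rps27rt, a retrogene of Rps27, stood at 16.4 ± 0.449 FPKM (WT) and 15.3 ± 0.277 FPKM (KO). Initiation factors (39) had a median of 0.027 with 2 at an unadjusted p under 0.05: Eif1b, at 84.9 ± 0.309 and 93.9 ± 2.44 FPKM, and the eIF3 subunit gene Eif3d, at 38.6 ± 1.52 and 34.0 ± 0.925 FPKM. Elongation and termination factors (14) had a median of 0.021 with 1, Eef1d, at 47.1 ± 1.58 and 42.5 ± 1.74 FPKM. Eef1a2, the elongation factor form of mature neurons, stood at 364 ± 1.38 and 387 ± 4.63 FPKM with all KO libraries above all WT libraries.

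Ribosome assembly factors (40) had a median of -0.005 with 4 at an unadjusted p under 0.05, among them Polr1a, the largest subunit of RNA polymerase I, at 11.6 ± 0.276 and 8.99 ± 1.14 FPKM. The mTORC1 and TOP regulators (18) had a median of 0.001 with 3, among them Rheb, the GTPase that activates mTORC1, at 44.7 ± 0.144 and 49.6 ± 2.56 FPKM. Chaperones of ribosomal proteins (9) had a median of 0.017 with 0. Mitochondrial ribosomal proteins (78), which belong to a separate ribosome, had a median of -0.012 with 4, among them Mrps6 at 26.4 ± 4.03 and 20.1 ± 0.719 FPKM. The shares of each list at an unadjusted p under 0.05 are to be read against 15.5% of all tested genes.

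**Figure D5:**
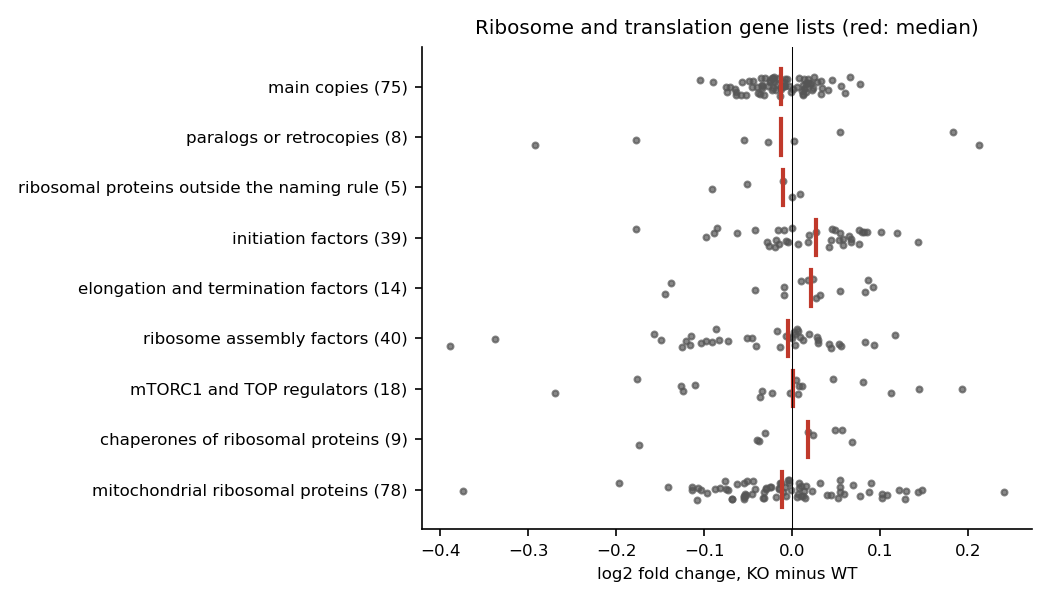
Log2 fold change (KO minus WT) of the tested genes in each list, 1 point per gene with the median in red and the number of genes in brackets. Medians lie between -0.013 and 0.027, and the main copies run from -0.10 to 0.08.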

How the data were processed

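Hippocampal RNA-seq libraries were analysed from 1 gene table per library. For each gene the authors deposited an FPKM value, its confidence limits and a status, per the file headers. Bowtie (version 1), HISAT and the genome mm10 appear in the submitters' processing notes without a stated role. No source used here names the program that computed the FPKM, its strand setting or how it treated reads shared by copies. Groups and numbers were read from the sample titles. Technical replicates were averaged per animal, and no depth could be given, so no counting interval was computed.

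Genes with at least 0.5 FPKM in 2 animals (16667 of 55188) were tested with limma 3.58.1 (R 4.3.3, trended variance) on log2(FPKM + 1); the pseudocount of 1 makes fold changes of low genes too small. Benjamini-Hochberg adjustment ran over all tested genes, with a threshold of 0.05. The fit was tested on simulated data, with changes larger than that of any tested member here, so that check does not cover differences of this size. Ratios of paralog to main copy used a pseudocount of 0.1, and ratios and sums were compared by exact two-sided permutation over the 4 animals. Coding sequences came from GENCODE M21 and start windows from RefSeq GRCm38.p6. The genes named are the 8 highest, the 6 largest differences in each direction, the 4 smallest p, the 4 widest technical spreads, the paralogs with their main copies, members at 0 or below the minimum, the functional groups and up to 3 genes of each related list; others are named only to describe a count. For 2 genes, single values are not reported here.

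The members, lists and minimum were chosen with earlier results of these data known. The 3 retrocopy pairs, the bounds on level, length and fold change, the motifs, the sequences shown and the comparison of animal numbers were chosen after member values were seen. Whether equal numbers pair WT with KO animals was checked by the correlation, over genes, of WT1 minus WT2 with KO1 minus KO2. It was 0.107 over all tested genes and 0.235 over the ribosomal protein genes, and the labels give no pairing. A shift common to a whole set drops out of a correlation within it, so these values do not decide whether the numbers are paired. Alternatives covered scaling, minimum, pseudocount, technical replicates, the unit of replication, the replicate block and leaving out each animal or the first library of KO1, in 16 fits in all.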

Additional observations from a re-analysis of the deposited data

Results flagged for a closer look

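In 3 of 88 groups of 4 libraries, examined for 45 members, 1 library lay far from the other libraries of its group, by a rule that chance alone meets in about 1 of 20 groups. Libraries of a group include technical replicates, so they are not independent. Rplp0, the scaffold of the P stalk, stood at 149.6 FPKM in the second library of WT1, above the other WT libraries. Rplp1 stood at 809 FPKM in the second library of KO2, above the other KO libraries. Rps12, a small subunit protein, stood at 250.8 FPKM in the first library of KO2, below the other KO libraries.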

How the results depend on the processing

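The count of ribosomal protein genes past the threshold was 0 as reported and in every alternative with animals as units, including each fit without 1 animal. With all 8 libraries as units, where p-values are too small, it was 5: Rps27l, Rps4l, Rpl36, Rps28 and Rpl7l1. With the replicate block it was 0, while calls over all genes rose from 9 to 184; calls over all genes ran from 0 to 2046 over the alternatives. The median log2 fold change of the members was -0.012, ran from -0.038 to 0.016 with 1 animal left out and turned to 0.028 after median-of-ratios scaling. The summed level, -0.944% in KO, was -2.72% to 0.894% with 1 animal left out and 1.87% after median-of-ratios scaling. The 5 pairs with separate animals became 4 on the first and 4 on the second technical replicates alone, and 6 to 9 with 1 animal left out, where groups of fewer animals overlap less by construction. Rps27l kept its sign throughout (-0.35 to -0.25), with an adjusted p of 0.0973 to 0.506 in fits on animals; Rps2 ran from -0.0013 (without KO1) to 0.11 with 1 animal left out.

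Ratios to the main copy that changed sign, with their ranges when 1 animal was left out, were those of Rpl3l (-0.19 to 0.026), Rpl22l1 (-0.029 to 0.092), Rpl36al (-0.032 to 0.019, and 0.013 on first technical replicates), Rpl39l (-0.92 to 0.060) and Rps12l1 (-0.11 to 0.055). The cause was not tested.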
